A study of Mus musculus with 10 samples.

Results

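The 7 genes of the Slit and Robo families (Robo1, Robo2, Robo3, Robo4, Slit1, Slit2 and Slit3) were followed by name among the 31053 genes of single-cell RNA-sequencing matrices from mouse cortex at embryonic day E16.5. The genes were chosen by family, with earlier results of these data known. The study had already listed Robo1 as dosage-sensitive in its layer II-IV cluster from the same embryos, so the values of Robo1 there are not an independent finding. The libraries came from 3 WT embryos, 4 Gatad2b stop/+ embryos (Het) and 3 Gatad2b stop/stop embryos (KO), with 1 library per embryo, on a C57BL/6N-A tm1Brd background. The stop allele is the germline Gatad2b tm1a(EUCOMM)Hmgu gene trap, which is present in every cell from conception, so a difference between embryos cannot be assigned to the cell in which it was measured. Gatad2b encodes a subunit of the NuRD chromatin remodelling complex. Of 80071 barcodes, 65779 held at least 1000 unique molecular identifiers (UMIs, each standing for 1 captured RNA molecule) and at most 10% mitochondrial UMIs, and were kept as cells.

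Slit proteins are secreted ligands of the Robo receptors, which are transmembrane proteins of the immunoglobulin superfamily. Binding of Slit to Robo repels growing axons and migrating neurons, and in the forebrain the pathway is known for guiding callosal, corticofugal and thalamocortical axons, for keeping interneurons out of the striatum and for adjusting progenitor division. Robo3 is known for permitting commissural axons to cross the midline, and Robo4 is a receptor of endothelial cells.

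On GRCm38, the build of the deposited matrices (named mm10 there), Robo1 (ENSMUSG00000022883) lies at chr16:72308306-73046095 on the forward strand and Robo2 (ENSMUSG00000052516) at chr16:73891839-74411825 on the reverse strand of the same chromosome. Robo3 (ENSMUSG00000032128, chr9:37415669-37433246, reverse strand) and Robo4 (ENSMUSG00000032125, chr9:37401897-37415115, forward strand) are neighbours on chromosome 9. Slit1 (ENSMUSG00000025020) lies at chr19:41600257-41743665 on the reverse strand, Slit2 (ENSMUSG00000031558) at chr5:47983138-48307733 on the forward strand and Slit3 (ENSMUSG00000056427) at chr11:35121224-35708507 on the forward strand. The 250 bases before an annotated RefSeq start of Robo1 and of Robo2 (GRCm38.p6) are shown because these are the 2 members with the most UMIs and most of the values that follow are theirs. Both are written 5′ to 3′ on the strand of the gene, with CG dinucleotides in capitals.
Robo1, chr16:72662899-72663148: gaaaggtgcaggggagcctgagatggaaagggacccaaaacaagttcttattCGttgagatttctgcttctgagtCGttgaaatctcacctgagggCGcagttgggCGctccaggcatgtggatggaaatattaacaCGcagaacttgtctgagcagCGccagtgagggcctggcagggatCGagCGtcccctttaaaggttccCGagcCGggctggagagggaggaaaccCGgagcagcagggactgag
Robo2, chr16:74411826-74412075: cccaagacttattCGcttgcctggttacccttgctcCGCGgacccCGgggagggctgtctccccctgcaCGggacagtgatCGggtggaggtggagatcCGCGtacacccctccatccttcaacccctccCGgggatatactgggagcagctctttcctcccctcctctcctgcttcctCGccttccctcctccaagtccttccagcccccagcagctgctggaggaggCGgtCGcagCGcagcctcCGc
The Robo1 stretch held 11 CG dinucleotides and the Robo2 stretch 14, against a median of 6 over 32841 windows of this length before annotated starts. At least 11 were found in 35.6% of these windows and at least 14 in 29.4%. Neither stretch held the letters TATAAA on either strand, which 12.4% of all windows did. The Robo1 start lies 354843 bases inside the gene as GENCODE draws it, whereas this Robo2 start coincides with the start of the gene, and 2 further Robo2 starts, whose windows held 8 and 4 CG dinucleotides, lie outside it. UMIs were read at the 3′ end of the RNA, so they do not tell which start was used.

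Total UMIs per embryo ranged from 82872641 to 123737385, and the median per cell from 10795 to 17077.5; 993 cells carried a barcode sequence that also occurred in another library. Gatad2b itself followed the genotypes over all cells, with 130.7 to 139.2 CPM (UMIs of a gene scaled to the size of the library, here by the trimmed mean of M-values, TMM) in WT embryos, 89.81 to 95.66 CPM in Het embryos and 50.93 to 57.3 CPM in KO embryos. Library names begin with 1 of 2 prefixes, of unstated meaning, that divide the embryos into WT with Het replicate 4 on one side and KO with the remaining Het embryos on the other. WT and KO embryos therefore share no prefix, and fits with the prefix as a covariate rest on Het replicate 4 alone. Cells fell into 29 clusters, of which 21 were placed in 11 marker-defined classes and 8 stayed unnamed (19.3% ± 0.62 of cells in WT, 16.6% ± 1.92 in Het and 17.0% ± 0.84 in KO; SD over embryos). The 7 genes were left out of the clustering. Striatal inhibitory-like cells, 10.65% of those kept, were present although the dissected tissue was cortex.

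In WT cortex, Robo1 and Robo2 RNA was found in all neuronal classes, with different orders of the classes for each receptor. The mean Robo1 level of the 3 WT embryos was highest in striatal inhibitory-like cells (144.1 ± 3.46 CPM, SD), followed by layer II-IV-like cells (125.7 ± 20.6) and layer V-VI-like cells (115.7 ± 18.4). Layer II-IV-like cells overlapped with both other classes, so their place is not resolved. Striatal inhibitory-like cells (141.5 to 148 CPM) lay above layer V-VI-like cells (95.13 to 130.6) in every WT embryo. Interneuron-like cells followed at 53.66 ± 3.33 CPM without overlap, and radial glia-like cells had 22.2 CPM. Radial glia are the neural progenitors of the ventricular zone, but the single cluster of this class scored higher on oligodendrocyte precursor markers (3.51) than on radial glia markers (2.54). Erythroid-like cells, which are not known to use axon guidance receptors, gave 7.98 CPM of Robo1 and 16.8 CPM of Robo2, as a measure of free RNA. Microglia-like cells gave more, at 44.01 ± 14.77 CPM of Robo1 and 67.37 ± 17.35 of Robo2, on 46 and 70 UMIs. They overlapped with interneuron-like cells for Robo1 and with radial glia-like cells for Robo2, and lay above radial glia-like cells for Robo1. Robo2 was highest in layer II-IV-like cells at 476.2 ± 38.9 CPM, followed by subventricular zone-like cells (338.0 ± 38.4) and Cajal-Retzius-like cells (326.3 ± 3.94), the early Reln neurons of layer I. Layer V-VI-like cells stood lower for Robo2, at 116.9 ± 15.1 CPM, and radial glia-like cells had 77.9 ± 9.57 CPM. Layer II-IV-like cells held 48.7% of the Robo1 UMIs and 64.6% of the Robo2 UMIs of WT embryos, against 37.87% of all UMIs.

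**Figure D1:**
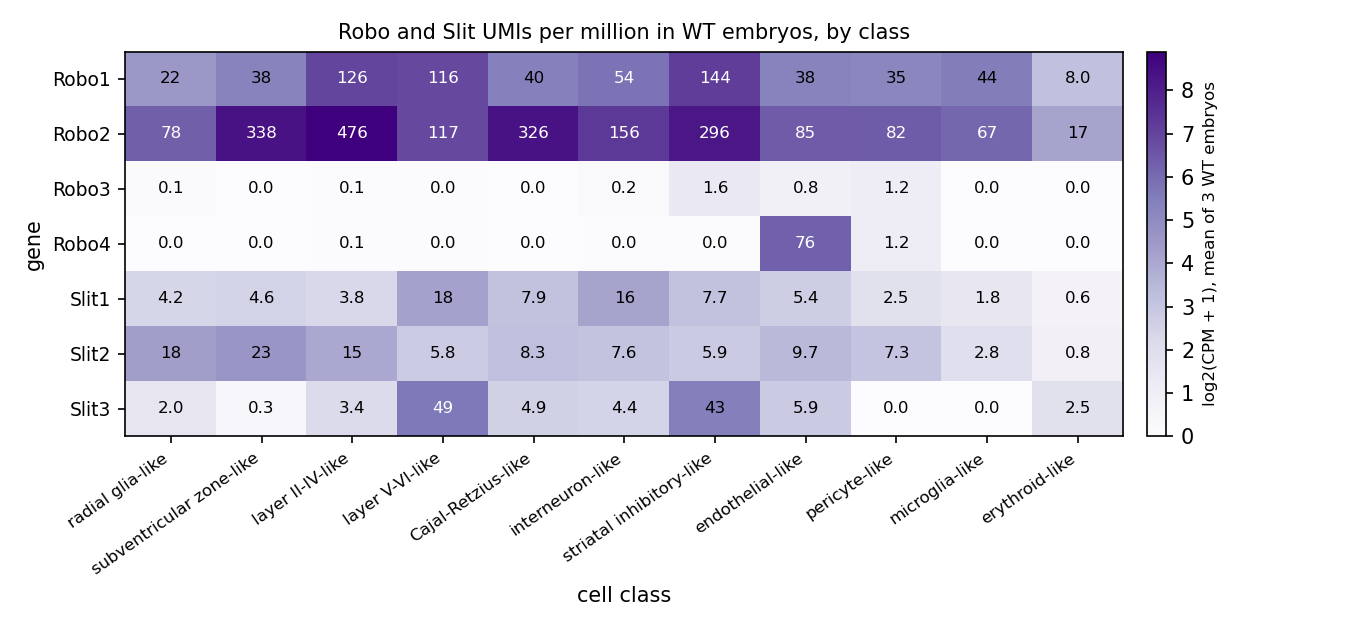
Mean level of each Robo and Slit gene (rows) in each marker-defined class (columns) over 3 WT embryos; the numbers are CPM without TMM scaling and the colour is log2(CPM + 1). Robo1 was between 115.7 and 144.1 CPM in the striatal and both cortical layer classes, and Robo2 peaked in layer II-IV-like cells at 476.2 CPM. Among the classes shown, Robo4 was seen mainly in endothelial-like cells, but unnamed clusters, which are not shown, held more of its UMIs.

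The remaining members had far fewer UMIs. Slit1 was highest in layer V-VI-like cells (17.68 ± 3.68 CPM) and interneuron-like cells (16.30 ± 1.27), which overlapped with each other and not with the classes below them. Slit2 was highest in subventricular zone-like cells (23.19 ± 0.686) and radial glia-like cells (18.43 ± 7.43), the latter spanning 10.09 to 24.34 CPM among 3 embryos. Slit3 was found in layer V-VI-like cells (48.86 ± 18.8) and striatal inhibitory-like cells (42.86 ± 7.19), and in the next class down the mean was 5.92 CPM. Among the clusters, Slit1 peaked in cluster 9, led by Adarb2 and Htr3a (56.3 CPM), Slit2 in the unnamed cluster 4, led by Fam19a1 and Tfap2d (77.2 CPM), and Slit3 in cluster 8, with Crym and Grp among its leading genes (128.7 CPM). In the other layer V-VI-like clusters, Slit3 was low in WT embryos, at 3.089 to 4.989 TMM-scaled CPM in cluster 5 and 3.449 to 7.115 in cluster 6. Robo4 gave 377 UMIs in all WT cells, 36.6% of them in endothelial-like cells (76.14 ± 36.5 CPM) and 59.4% in unnamed clusters, nearly all in cluster 28, whose leading genes Cldn5 and Rgs5 mark both endothelial cells and pericytes. Robo3 gave 71 UMIs, 30 of them in striatal inhibitory-like cells (1.587 ± 1.14 CPM). It was not detected in WT Cajal-Retzius-like, subventricular zone-like, erythroid-like and microglia-like cells, where a count of 0 allows up to 0.466, 0.306, 0.577 and 2.94 CPM over the group (3 counts, counting error only). One tag is counted per molecule regardless of its length, but capture of the 3′ end can differ between genes, so levels were compared between cells and not between genes.

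Over all cells, Robo1 was higher in KO than in WT, and no other member was called by edgeR, whereas DESeq2 called 2 members. WT embryos had 102.0, 103.8 and 83.2 TMM-scaled CPM of Robo1, Het embryos 122.7, 114.8, 115.7 and 99.95, and KO embryos 124.1, 141.7 and 131.8. Every KO embryo stood above every Het and WT embryo, whereas Het replicate 4 lay within the WT range. The log2 fold change of KO against WT was 0.46 ± 0.0909 (SE), or 1.38-fold (adjusted p = 0.00291, edgeR quasi-likelihood test with Benjamini-Hochberg adjustment over all genes). Het against WT gave 0.23 ± 0.0853 (adjusted p = 0.113) and KO against Het 0.23 ± 0.0846 (adjusted p = 0.136). With calls made where the adjusted p was under 0.05 and the absolute log2 fold change above 0.25, 1 of 7 members was called in KO against WT, where 24.5% of all genes tested were called, 0 of 7 in Het against WT (2.98% of all genes), and 0 of 7 in KO against Het (5.5%). In both comparisons with a count of 0, Robo1 was the 1 member with an unadjusted p under 0.05, and DESeq2 called 0 as well. With the library prefix as a covariate the KO value of Robo1 fell to 0.22 (adjusted p = 0.344).

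Robo1 was higher in layer II-IV-like neurons of both mutant genotypes. The WT embryos had 125.5, 143.9 and 102.3 CPM, the Het embryos 162.5, 165.0, 174.2 and 154.1, and the KO embryos 183.7, 202.2 and 198.3. The 3 genotypes did not overlap, with WT lowest and KO highest, and Het replicate 4, which shares the prefix of WT, also stood above all WT embryos. Het exceeded WT by 0.40 ± 0.085 on the log2 scale (1.32-fold, adjusted p = 0.0111) and KO exceeded WT by 0.65 ± 0.0904 (1.57-fold, adjusted p = 6.5e-05). The KO call held, as an adjusted p under 0.05 in the same direction, in 21 of 21 alternatives, including the prefix as a covariate (0.53, adjusted p = 0.0227), under which the Het call was lost (0.31, adjusted p = 0.254). KO exceeded Het by 0.25 ± 0.0839 (adjusted p = 0.057), and by 0.22 (adjusted p = 0.00514) within the 6 libraries of 1 prefix. In this class 6.54% of all genes were called in Het against WT, 30.4% in KO against WT and 11.8% in KO against Het. After each cell was thinned to 3000 UMIs, Robo1 was detected in 28.56% ± 3.82 of WT, 34.14% ± 1.44 of Het and 37.06% ± 1.58 of KO layer II-IV-like cells (69.61%, 76.91% and 77.81% unthinned, at median depths of 15680, 17670 and 18700 UMIs), against 1.468%, 1.318% and 0.1984% of erythroid-like cells (median depths of 8382, 9702 and 10180 UMIs).

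In layer V-VI-like neurons Robo1 was also higher in KO. The WT embryos had 127.5, 120.6 and 92.79 CPM of Robo1, the Het embryos 161.0, 133.4, 136.3 and 118.6, and the KO embryos 163.9, 189.1 and 189.4. The KO embryos lay above all others, and the Het embryos overlapped with WT. KO exceeded WT by 0.67 ± 0.113 on the log2 scale (1.59-fold, adjusted p = 0.000605) and Het by 0.40 ± 0.105 (adjusted p = 0.0245), while Het against WT gave 0.27 ± 0.107 (adjusted p = 0.194). Background calls in this class were 23.4% in KO against WT, 9.25% in KO against Het and 1.28% in Het against WT. The call against WT was lost with the prefix as a covariate (0.39, adjusted p = 0.207), and that against Het in 7 of 22 alternatives. After thinning, Robo1 was detected in 23.98% ± 3.17 of WT, 27.64% ± 2.78 of Het and 37.26% ± 2.62 of KO layer V-VI-like cells (62.66%, 68.67% and 84.16% unthinned).

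**Figure D2:**
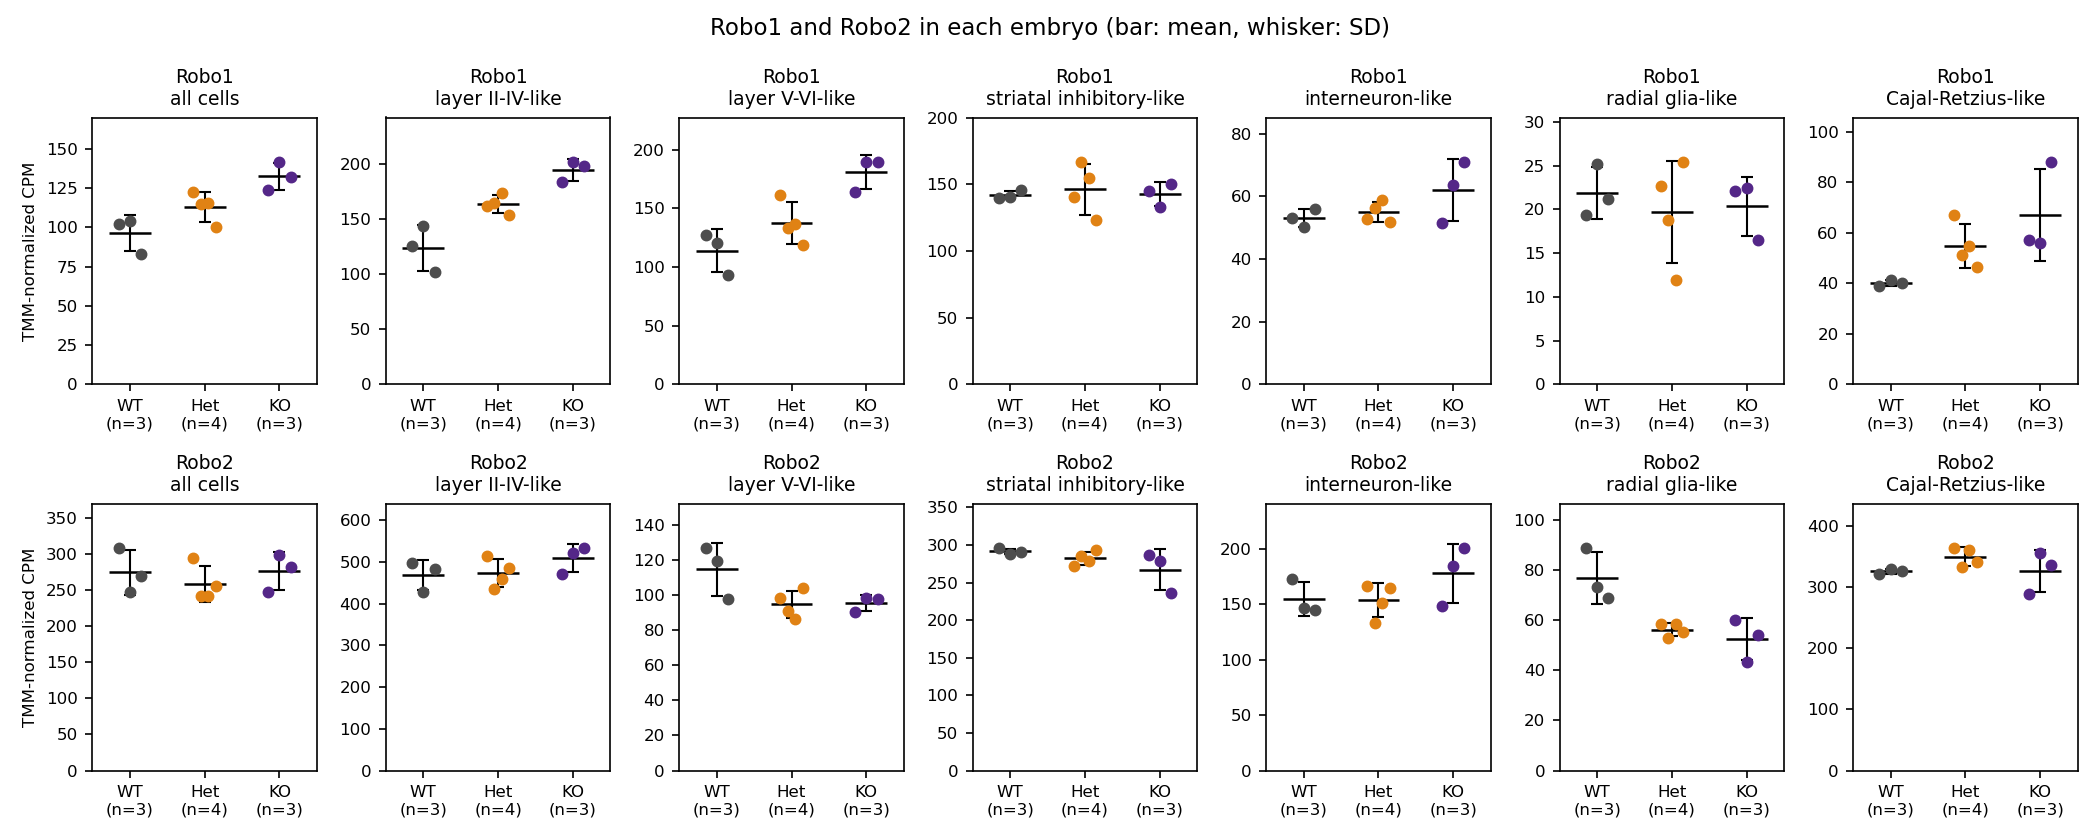
TMM-scaled CPM of Robo1 (upper row) and Robo2 (lower row) in each embryo (points), for all cells and 6 classes; bars are means and whiskers SD over 3 WT, 4 Het and 3 KO embryos. Robo1 rose from a WT mean of 123.9 to a KO mean of 194.7 in layer II-IV-like cells while Robo2 stayed between 428 and 532.9 in every embryo.

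Robo1 was not called in striatal inhibitory-like and interneuron-like cells, and was called in Cajal-Retzius-like cells. In striatal inhibitory-like cells, which had the highest WT level, WT embryos had 139.9, 140.2 and 145.7 CPM and KO embryos 145.1, 132.9 and 150.1, a log2 difference of 0.01 ± 0.0886 (adjusted p = 0.967, 17.8% of all genes called). In interneuron-like cells WT embryos had 53.2, 50.2 and 56.1 CPM and KO embryos 51.5, 63.6 and 71.0, a log2 difference of 0.23 ± 0.102 (adjusted p = 0.174, 8.81% called). Cluster 2, with 60.9% ± 3.85 of these cells in WT, was called higher for Robo1 in KO when tested alone, as given with Slit1 below. The Robo1 changes of layer II-IV-like and interneuron-like cells were compared directly with a class-by-genotype term, which gave 0.44 in KO (adjusted p = 0.0548, 6.37% of all genes called) and 0.35 in Het (adjusted p = 0.467, 0.108% called). Radial glia-like cells ranged from 16.46 to 22.45 CPM in KO and from 19.35 to 25.16 in WT. In Cajal-Retzius-like cells the WT embryos had 39.07, 41.44 and 40.18 CPM, the Het embryos 66.92, 51.10, 54.58 and 46.24, and the KO embryos 56.95, 56.09 and 87.99. KO replicate 3 stood apart from the other KO embryos, and without it the log2 difference from WT went from 0.75 (adjusted p = 0.00866, 5.52% of all genes called) to 0.49 (adjusted p = 0.11).

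**Figure D3:**
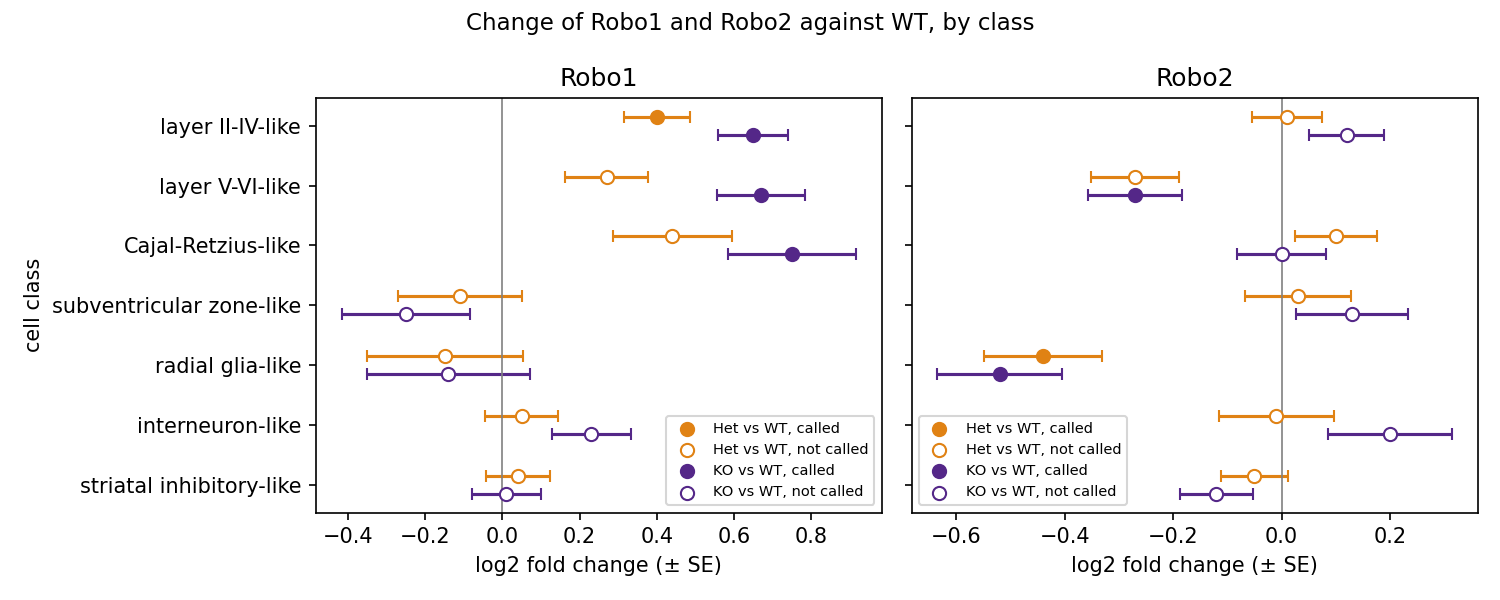
Log2 fold change (± SE) of Robo1 (left) and Robo2 (right) in Het against WT (orange) and KO against WT (purple) by class; filled points were called and open points were not. For Robo1 the 3 called classes in KO all lie above 0, at 0.65, 0.67 and 0.75, and for Robo2 the called classes, radial glia-like and layer V-VI-like, lie below 0, at -0.52 and -0.27.

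The clusters inside each neuronal class were then tested alone, an analysis added after the class values were seen. Robo1 was called in 2 of the 3 clusters of layer II-IV-like cells. In cluster 0, with Itpr1 and Cdh12 among its leading genes, the WT embryos had 132.4, 151.3 and 104.1 CPM of Robo1, the Het embryos 185.7, 178.1, 192.0 and 180.7, and the KO embryos 235.2, 240.7 and 262.5. All 3 genotypes were separated, with Het 0.51 ± 0.0879 (adjusted p = 0.00309, 6.13% of all genes called), KO 0.93 ± 0.0935 (1.9-fold, adjusted p = 2.11e-06, 28.2% called) above WT and KO 0.42 ± 0.0863 above Het (adjusted p = 0.00373, 10.8% called). Within the libraries of 1 prefix KO exceeded Het by 0.42 (adjusted p = 1.96e-05). In cluster 12, led by Inhba and Nr4a2 among others, WT embryos had 141.2, 138.2 and 117.6 CPM, Het embryos 202.6, 173.5, 189.1 and 176.9, and KO embryos 204.7, 234.9 and 214.2 (Het 0.48, adjusted p = 0.00219, 1.64% of all genes called; KO 0.71, adjusted p = 4.01e-06, 1868 of 11336 genes called). The Het calls of both clusters were lost with the prefix as a covariate (0.48 with adjusted p = 0.0614 in cluster 0, and 0.42 with adjusted p = 0.141 in cluster 12).

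Cluster 1, led by Pdzrn3, Unc5d and Sema3c, the netrin receptor Unc5d being known from migrating upper-layer neurons, had a smaller Robo1 difference. The WT embryos had 103.5, 129.6 and 91.19 CPM, the Het embryos 118.2, 137.3, 135.8 and 103.7, and the KO embryos 115.1, 143.9 and 128.6, so that the genotypes overlapped (KO 0.26 ± 0.114, adjusted p = 0.0944, 25.6% of all genes called). The change of Robo1 was greater in cluster 0 than in cluster 1 by 0.67 ± 0.0801 in KO (adjusted p = 1.48e-06 for a cluster-by-genotype term, for which 10.9% of all genes were called) and by 0.32 ± 0.0763 in Het (adjusted p = 0.038, 1.1% called). In cluster 12 the KO change exceeded that of cluster 1 by 0.45 (adjusted p = 0.00565, 8.2% called). Leaving out 1 embryo at a time kept the KO difference of cluster 0 from cluster 1 between 0.62 and 0.76 with a highest adjusted p of 3.71e-05, whereas the adjusted p of the Het difference reached 0.16. The share of layer II-IV-like cells in cluster 0 was 54.6% ± 1.35 in WT, 49.5% ± 1.92 in Het and 43.8% ± 3.18 in KO, and that in cluster 1 went from 34.7% to 40.2% and 50.1%. Beside these values, the summed CPM of 9 markers of layers II-IV in layer II-IV-like cells spanned 2462 to 2598 for WT embryos, 2348 to 2536 for Het embryos and 2161 to 2310 for KO embryos, and that of 8 markers of layers V-VI was 218.8 to 261.1, 263.4 to 299.5 and 346.5 to 369.7. The subventricular zone markers summed to 188 to 211.2, 242.6 to 270.6 and 337.1 to 386.1 CPM, 6 of the 7 tested being called higher in KO, and this list was the second-best of cluster 1. The part of these markers in the Robo1 result was not tested.

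In cluster 5 of the layer V-VI-like cells, led by Hs3st4 and Tle4, genes known from layer VI corticothalamic neurons, the WT embryos had 43.24, 58.82 and 43.35 CPM of Robo1, the Het embryos 75.71, 58.08, 64.39 and 59.18, and the KO embryos 167.4, 161.2 and 167.4. The KO embryos lay far above all others, and 1 Het embryo lay below the highest WT embryo. The increase in KO was 1.76 ± 0.104 on the log2 scale against WT (3.38-fold, adjusted p = 1.61e-10, 22.8% of all genes called) and 1.36 ± 0.0921 against Het (2.57-fold, adjusted p = 3.38e-09, 10.1% called). With the prefix as a covariate KO exceeded WT by 1.59 (adjusted p = 8.95e-07), and within the libraries of 1 prefix it exceeded Het by 1.32 (adjusted p = 1.53e-10). Het exceeded WT by 0.40 (adjusted p = 0.0479, 1.99% called), a call that held in 7 of 19 alternatives. The 8 markers of layers V-VI in cluster 5 summed to 2607 to 2731 CPM for WT embryos, 2633 to 2752 for Het embryos and 2735 to 2965 for KO embryos, and the subplate markers to 282.4 to 367.4, 306.6 to 402.6 and 183.8 to 188.4. The markers of layers II-IV were at 470.2 to 537.6, 386.9 to 452.8 and 425.6 to 452.8 CPM. Their part in the Robo1 increase was not tested.

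The neighbouring deep-layer clusters behaved differently for Robo1. Cluster 6, led by Fezf2 and Ldb2, genes of layer V neurons, already had 190.6, 198.4 and 171.6 CPM in WT, and rose to 252.0, 247.0, 247.8 and 214.6 in Het (0.36, adjusted p = 0.012, 1.6% of all genes called) and to 237.2, 265.5 and 273.2 in KO (0.46, adjusted p = 0.00013, 23.1% called). Both calls were lost with the prefix as a covariate (Het 0.2, adjusted p = 0.397; KO 0.25, adjusted p = 0.146), and the Het call also without WT replicate 3 (adjusted p = 0.0982) or Het replicate 1 (adjusted p = 0.0536). Cluster 8, with Crym and Grp among its leading genes, had 130.1, 94.52 and 71.81 CPM in WT and 81.06, 116.1 and 114.6 in KO (0.08 ± 0.216, adjusted p = 0.854, 15.5% called). The KO change of Robo1 in cluster 5 exceeded that in cluster 6 by 1.31 ± 0.0895 (adjusted p = 1.27e-10, 6.9% of all genes called for this term) and that in cluster 8 by 1.72 ± 0.181 (adjusted p = 7.1e-07, 8.42% called). In WT, cluster 5 had the lowest Robo1 level of the 3 deep-layer clusters, and in KO it stood above cluster 8 and below cluster 6.

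**Figure D4:**
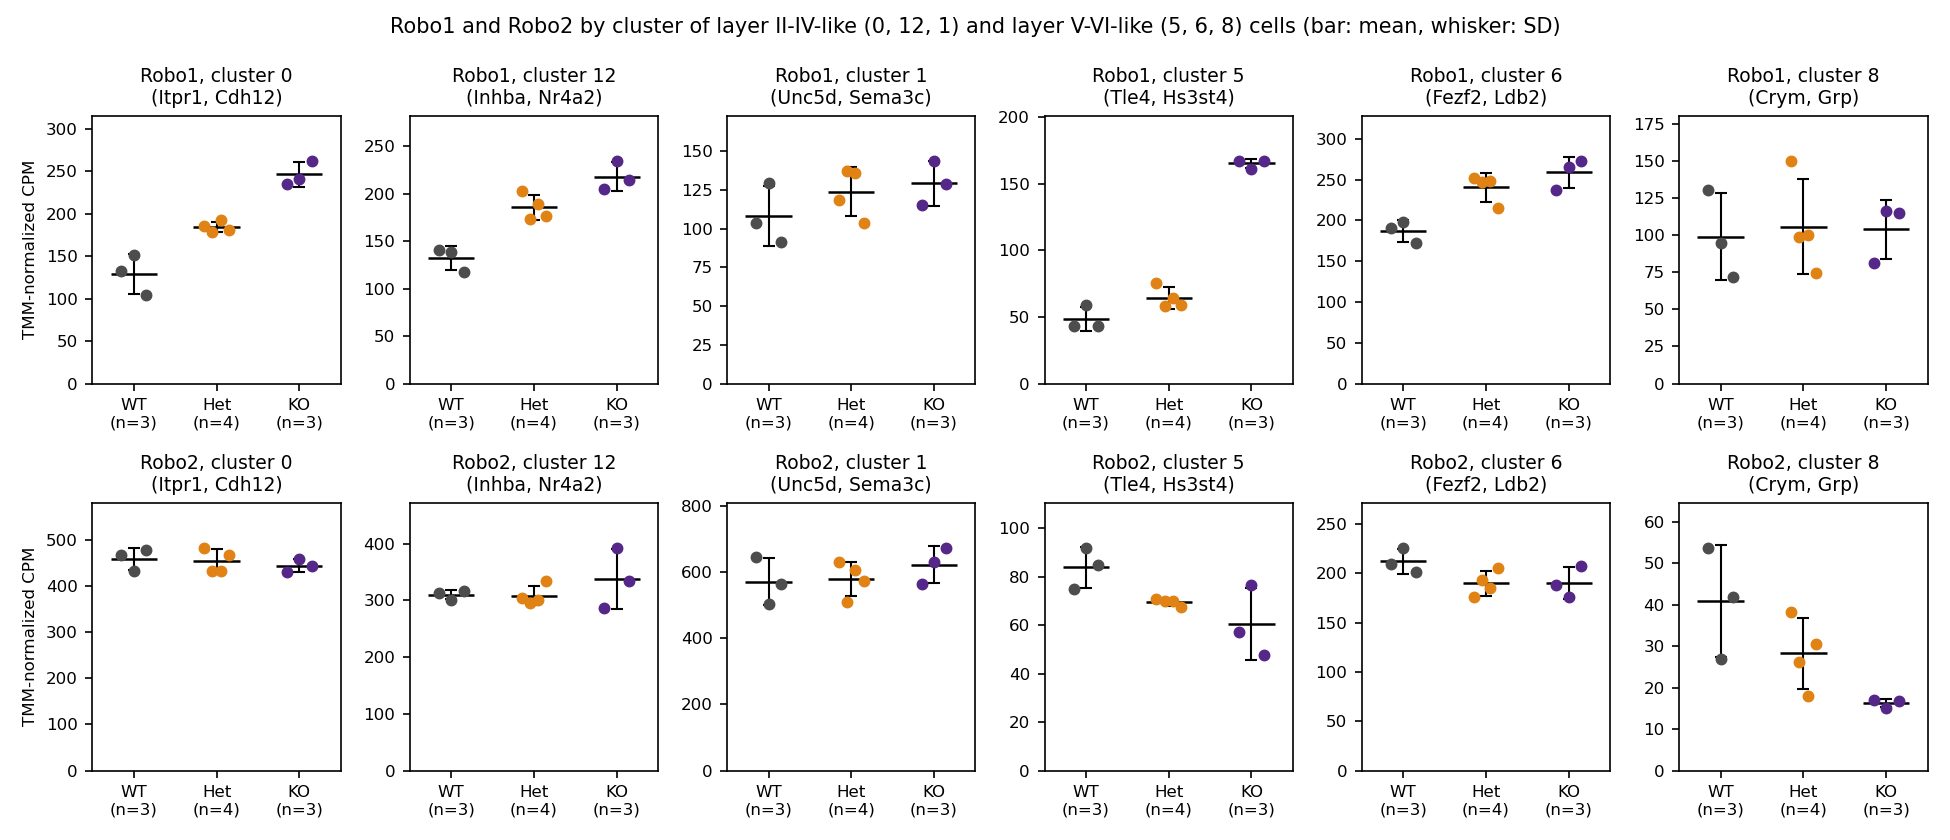
TMM-scaled CPM of Robo1 (upper row) and Robo2 (lower row) in each embryo (points) for clusters 0, 12 and 1 of layer II-IV-like cells and clusters 5, 6 and 8 of layer V-VI-like cells; bars are means and whiskers SD. In cluster 5 the 3 KO embryos sit between 161.2 and 167.4 for Robo1, above every other embryo, and in cluster 8 they sit between 15.14 and 16.97 for Robo2, below every other embryo.

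Robo2 was not called over all cells or in layer II-IV-like cells, and was lower in radial glia-like cells. Over all cells the WT embryos had 307.9, 246.7 and 268.9 CPM, the Het embryos 294.2, 241.1, 241.8 and 255.6, and the KO embryos 247.8, 298.4 and 282.2, a difference of 0.01 ± 0.0973 between KO and WT (adjusted p = 0.96). In layer II-IV-like cells, where Robo2 was highest, WT embryos spanned 428 to 497 CPM and KO embryos 470.6 to 532.9 (0.12 ± 0.0695, adjusted p = 0.191). In radial glia-like cells Robo2 was lower in both mutants: the WT embryos had 88.69, 73.12 and 68.90 CPM, the Het embryos 58.61, 52.89, 58.36 and 55.15, and the KO embryos 59.85, 43.39 and 54.01. No mutant embryo reached the lowest WT embryo, and this included Het replicate 4, which shares the prefix of WT. The log2 fold change was -0.52 ± 0.115 in KO (adjusted p = 0.00439, 21% of all genes called) and -0.44 ± 0.109 in Het (adjusted p = 0.0386, 2.73% called). The KO call was lost with the prefix as a covariate and without integration of the libraries (-0.31 in the latter), with values of -0.71 to -0.31 over 21 alternatives. The Het call was lost in 12 of 21 alternatives, with values of -0.51 to -0.19. In the same cells 7 of the 14 radial glia markers were called lower in KO and 3 higher. The 14 together summed to 20190 to 21760 CPM for WT embryos, 17360 to 21390 for Het embryos and 15590 to 17390 for KO embryos, and the subventricular zone markers to 514.7 to 619.8, 831.3 to 1106 and 1022 to 1133. All 7 oligodendrocyte precursor markers were called lower in KO, with sums of 720.5 to 871.9, 362 to 856.1 and 305.6 to 338.9 CPM. The single cluster of this class scored 3.51 on that list and 2.54 on the radial glia list. As a measure of free RNA, Robo2 in erythroid-like cells was at 16.78 ± 10.3 CPM in WT, 8.884 ± 4.82 in Het and 5.165 ± 2.89 in KO before TMM scaling. After it, the levels were 9.282, 7.546 and 10.07 CPM, with overlapping embryos (KO against WT 0.13 after scaling, adjusted p = 0.915). TMM evens out the bulk of the genes of a class, which here may be free RNA itself. The scaled test therefore cannot tell whether the amount of free RNA differed. In microglia-like cells the Robo2 levels before scaling were 67.37, 44.66 and 20.45 CPM, on 70, 41 and 15 UMIs (KO -1.42, adjusted p = 0.31), and in pericyte-like cells 81.67, 48.06 and 8.949 CPM, on 68, 46 and 4 UMIs. The single cluster of pericyte-like cells scored 4.62 on the meningeal fibroblast list and 3.87 on the pericyte list. The part of these markers and of free RNA in the Robo2 results was not tested.

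Robo2 was also lower in KO layer V-VI-like cells. The WT embryos had 126.7, 119.4 and 97.91 CPM, the Het embryos 98.04, 90.98, 86.41 and 103.9, and the KO embryos 90.08, 98.14 and 97.83, so that only 1 KO embryo exceeded the lowest WT embryo. The log2 fold change of Robo2 in KO was -0.27 (adjusted p = 0.0298), a call that held in 11 of 21 alternatives. Their values ran from -0.37 to -0.09, and the highest adjusted p was 0.767. By cluster, the Robo2 level in cluster 8 was 53.72, 26.78 and 41.88 CPM in WT, 38.26, 26.15, 17.89 and 30.53 in Het and 16.97, 15.14 and 16.77 in KO (-1.28 ± 0.241, or 0.411 of WT, adjusted p = 0.00163). In cluster 5 it was 75.02, 92.03 and 84.67 CPM in WT and 57.22, 76.58 and 47.54 in KO (-0.48 ± 0.115, adjusted p = 0.00401). Both calls held in 18 of 19 alternatives and were lost with the prefix as a covariate (-1.1 with adjusted p = 0.152, and -0.54 with adjusted p = 0.0912). Robo2 in cluster 6 changed by -0.16 (adjusted p = 0.111), and the change in cluster 6 was higher than that in cluster 8 by 1.12 (adjusted p = 0.00622, 5.75% of all genes called). None of clusters 0, 1 and 12 was called for Robo2, while cluster 2 of the interneuron-like cells was called higher in KO, as given with Slit1 below. The Robo2 change was higher in layer II-IV-like than in layer V-VI-like cells by 0.38 in KO (adjusted p = 0.00446, 14.8% of all genes called for this term).

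The Robo1 share of all Robo1 and Robo2 UMIs was computed within each embryo, which needs no scaling of libraries. It combines the Robo1 and Robo2 counts already given for these embryos and is not separate support for them. In layer V-VI-like cells this share was 50.14%, 50.23% and 48.66% in WT, 62.15%, 59.45%, 61.21% and 53.31% in Het, and 64.53%, 65.83% and 65.94% in KO. The 3 genotypes did not overlap, and of the Het embryos, replicate 4 lay closest to WT. The mean difference from WT was 15.76 percentage points in KO (two-sided exact permutation p = 0.1, the smallest that 3 against 3 embryos can give) and 9.351 points in Het (exact permutation p = 0.0571; the smallest possible was 0.0286). Over all cells the share was 26.04% ± 3.16 in WT, 30.54% ± 2.11 in Het and 32.47% ± 0.799 in KO (exact permutation p = 0.143 for Het and 0.1 for KO against WT). In striatal inhibitory-like cells it was 32.75%, 34.04% and 34.90%, with overlapping embryos. In thinned layer V-VI-like cells the share with Robo1 and no Robo2 UMI was 16.83% ± 1.59 in WT, 20.21% ± 2.44 in Het and 28.35% ± 1.60 in KO, and the share with Robo2 and no Robo1 UMI was 14.71% ± 1.15, 11.20% ± 1.17 and 8.359% ± 0.422.

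Robo3 and Robo4 were not called over all cells. Robo3 had 0.2106 ± 0.087 CPM in WT, 0.3119 ± 0.169 in Het and 0.3677 ± 0.193 in KO, with overlapping embryos (KO 0.76 ± 0.53 on the log2 scale, adjusted p = 0.283). In striatal inhibitory-like cells, where it had more UMIs than in any other named class, Robo3 was supported by 30, 54 and 48 UMIs in WT, Het and KO, and KO exceeded WT by 0.95 ± 0.573 (adjusted p = 0.264). Robo4 had 1.139 ± 0.158 CPM over all cells in WT, 1.035 ± 0.338 in Het and 0.995 ± 0.0982 in KO (KO -0.19 ± 0.245, adjusted p = 0.569). In endothelial-like cells its level was 76.14 ± 36.5, 56.81 ± 36.7 and 66.74 ± 9.14 CPM. These cells were not tested because 1 embryo had only 12 of them. At the other end, 1 Het embryo held 340 of the 607 cells of this class, and the Het embryos ranged from 8.024 to 95.21 CPM of Robo4.

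None of the ligands was called over all cells by edgeR. DESeq2 called 2 of the 7 members in KO against WT, with Robo1 among them, and the other is not named here. Slit1 had 9.172, 10.05 and 7.931 CPM in WT, 9.502, 9.463, 9.554 and 11.11 in Het and 11.40, 9.899 and 11.15 in KO (KO 0.26 ± 0.0959, adjusted p = 0.0548). In interneuron-like cells Slit1 was 15.28, 15.93 and 17.21 CPM in WT, 14.92 to 17.02 in Het, and 23.71, 18.07 and 19.20 in KO; the KO embryos lay above all others, but the difference was not called (0.33 ± 0.114, adjusted p = 0.0878). The Slit1 difference between KO and Het in these cells was 0.37 ± 0.108 (adjusted p = 0.208, 0.547% of all genes called). Within the interneuron-like class, Slit1 was called in cluster 2, led by Maf, Nxph1 and Lhx6, genes of medial ganglionic eminence-derived interneurons, at 5.375 ± 1.31 CPM in WT and 9.085 ± 0.112 in KO (0.75 ± 0.21, adjusted p = 0.0191, 16.8% of all genes called). Slit1 was also called in KO against WT in cluster 12 (0.94, adjusted p = 0.0299, held in 12 of 19 alternatives) and in cluster 8 (0.69, adjusted p = 0.0291, held in 11 of 19). It was not called in cluster 9, where its level was highest (0.14, adjusted p = 0.556, 6.22% of all genes called). The receptors were called in cluster 2 as well, Robo1 by 0.37 (adjusted p = 0.0393) and Robo2 by 0.39 (adjusted p = 0.0145). The alternatives were not run for cluster 2.

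Slit2 had 14.62, 17.69 and 18.93 CPM over all cells in WT, 17.35 to 18.83 in Het and 18.80, 17.85 and 20.00 in KO (KO 0.15 ± 0.0811, adjusted p = 0.18). In subventricular zone-like cells, its highest class, WT embryos spanned 22.04 to 23.15 CPM and KO embryos 18.22 to 27.78 (14.8% of all genes called). In Cajal-Retzius-like cells Slit2 was 9.134, 9.458 and 6.181 CPM in WT, 9.349, 13.11, 10.60 and 7.024 in Het and 15.42, 18.70 and 14.66 in KO. The KO embryos lay above all others, with a log2 fold change of 0.97 (adjusted p = 0.0428) that was called in 11 of 21 alternatives. Values ran from 0.29 to 1.17, and the call was lost with DESeq2, with the prefix as a covariate, at 5% mitochondrial UMIs and with any of several embryos left out. The WT level rests on 53 UMIs. In cluster 4, which had the highest Slit2 level, WT had 76.51 ± 8.71 CPM, Het 86.4 ± 9.47 and KO 87.01 ± 3.03 (KO 0.18 ± 0.0946, adjusted p = 0.249, 8.43% of all genes called). In cluster 8 Slit2 was called in KO against WT (0.46, adjusted p = 0.043, held in 9 of 19 alternatives) and against Het (0.55, adjusted p = 0.0312, 3.95% of all genes called, held in 11 of 20).

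Slit3 was spread more widely among the WT embryos than the other ligands. Over all cells it had 12, 17.85 and 24.06 CPM in WT, 14.28, 20.62, 19.84 and 21 in Het and 17.74, 12.76 and 16.70 in KO (KO -0.19 ± 0.22, adjusted p = 0.538). In layer V-VI-like cells Slit3 spanned 30.8 to 67.1 CPM in WT and 34.25 to 45.41 in KO, and the share of these cells in cluster 8, the cluster with the highest Slit3 level, was 28.7% ± 9.95 in WT and 26.1% ± 2.12 in KO. Within cluster 8 itself Slit3 differed by -0.08 ± 0.105 between KO and WT (adjusted p = 0.654). In striatal inhibitory-like cells Slit3 was 38.42, 37.86 and 50.34 CPM in WT, 34.15, 28.64, 33.07 and 33.44 in Het and 32.35, 30.88 and 29.94 in KO. All mutant embryos lay below all WT embryos (KO -0.45 ± 0.11, adjusted p = 0.00912; Het -0.39 ± 0.1, adjusted p = 0.0512, 2.1% of all genes called). Without WT replicate 3 the KO difference had an adjusted p of 0.074, and with clusters at a resolution of 0.8 it was -0.21 (adjusted p = 0.19). With the prefix as a covariate the call was also lost (adjusted p = 0.42). In the same cells 4 of 7 mitosis markers were called higher in KO, with sums of 238 to 351.8 CPM for WT embryos, 409 to 447.4 for Het embryos and 508.2 to 623.5 for KO embryos, and the sums of the ganglionic eminence markers (1024 to 1144, 1155 to 1250 and 1249 to 1428), radial glia markers (831.8 to 872.5, 885.5 to 954.9 and 974.1 to 1106), subventricular zone markers (111 to 127.5, 153.5 to 166.5 and 203.9 to 223) and interneuron markers (625.8 to 694, 634.6 to 735.6 and 748.8 to 807.2, with 4 of 13 called higher and 3 lower) were also higher in every KO than in every WT embryo. Their part in the Slit3 result was not tested. In cluster 12 of the layer II-IV-like cells Slit3 was 4.111, 5.24 and 4.547 CPM in WT, 10.54, 10.01, 8.533 and 10.68 in Het and 14.97, 6.548 and 14.3 in KO. No mutant embryo overlapped with WT (Het 1.08 ± 0.225, adjusted p = 0.0158; KO 1.40 ± 0.252, adjusted p = 0.000538), and the KO call held in 19 of 19 alternatives. The Het call held in 15 of 19, and was lost with the prefix as a covariate (adjusted p = 0.174) and without WT replicate 1 (0.0731), 2 (0.0508) or 3 (0.0838). These values rest on 15 to 56 UMIs per embryo. In cluster 0 Slit3 was called in KO against WT (0.62, adjusted p = 0.0477, 28.2% of all genes called, held in 7 of 19 alternatives). It was also called in KO against Het (0.83, adjusted p = 0.0261, 10.8% called, held in 15 of 20). Its level there was low, with KO embryos at 2.36, 1.802 and 2.331 CPM. All lay above the Het embryos (at most 1.434), but KO replicate 2 lay below WT replicate 3 (1.832). These cluster 0 levels rest on 16 to 42 UMIs per embryo. Erythroid-like cells, the measure of free RNA, held 2.52 CPM of Slit3 for WT embryos before scaling (13 UMIs) and 0 for mutants. The part of free RNA in these calls was not tested.

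**Figure D5:**
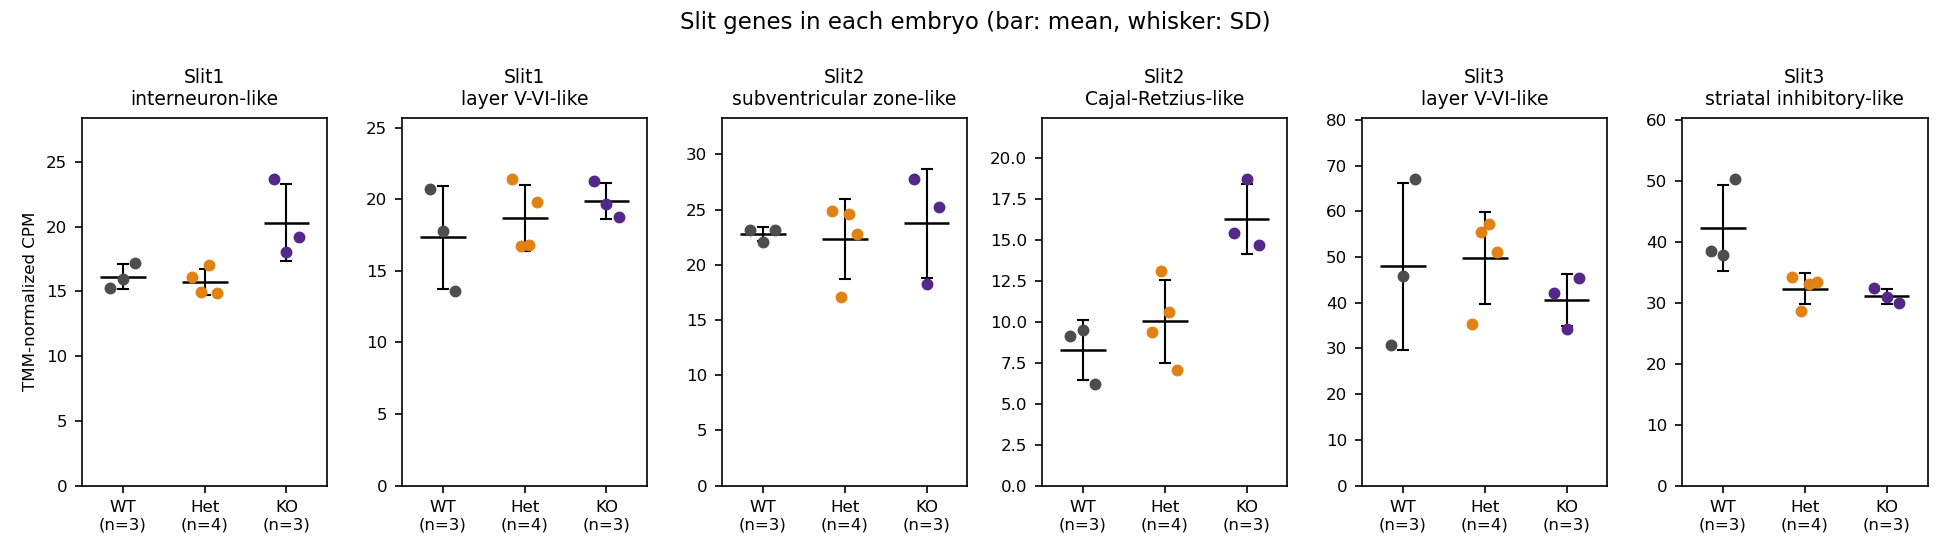
TMM-scaled CPM of Slit1, Slit2 and Slit3 in each embryo (points) in classes with high levels and in Cajal-Retzius-like cells; bars are means and whiskers SD over 3 WT, 4 Het and 3 KO embryos. Slit2 in Cajal-Retzius-like cells lies between 14.66 and 18.70 in KO and at most 13.11 in the others, and Slit3 in striatal inhibitory-like cells lies at 37.86 or higher in WT and at most 34.15 in the mutants.

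Counted over the 9 tested classes, 36 of the 63 pairs of a member and a class passed the filter on low counts. Of these, 7 were called in KO against WT, 2 in Het against WT and 1 in KO against Het, where of all genes in all tested classes 17%, 1.94% and 4.37% were called. The 7 pairs were Robo1 in layer II-IV-like, layer V-VI-like and Cajal-Retzius-like cells (higher), Robo2 in radial glia-like and layer V-VI-like cells (lower), Slit2 in Cajal-Retzius-like cells (higher) and Slit3 in striatal inhibitory-like cells (lower). With the prefix as a covariate 1 of the 7 remained called, Robo1 in layer II-IV-like cells. The share of all genes called in that fit is not given here, so the drop cannot be read as a result about these pairs. Among 76 pairs of a member and a cluster tested in 18 clusters, 17 were called in KO against WT, 5 in Het against WT and 4 in KO against Het, against 13.5%, 1.44% and 3.54% of all genes over these clusters. Not all of the 17 are named above. Pairs of 1 member in a class and in its clusters share their cells, and pairs of KO and Het share their WT embryos, so they are not independent counts.

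Other genes of the pathway were read from lists of 12 surface partners, 18 intracellular effectors and 6 trafficking genes, all 36 of which were tested over all cells. In KO against WT, 7 of the 36 were called (4 higher, 3 lower) where 24.5% of all genes were, with a median log2 fold change of -0.01, which was also -0.01 over all genes. In Het against WT 0 of 36 were called by edgeR, which called 2.98% of all genes, and 0 by DESeq2, with a median of -0.04. Of the 36, 15 had an unadjusted p under 0.05, but the share of all genes at that level is not given here, so no excess can be read from this count. Among the surface partners, the heparan sulfate proteoglycan Gpc1, which binds Slit, was higher (0.34 ± 0.0491, adjusted p = 0.000492) and Sdc2 lower (-0.45 ± 0.0943, adjusted p = 0.00396). Dcc, the netrin receptor that Robo1 can bind, gave 0.30 ± 0.115 (adjusted p = 0.0584). Of the effectors, the GTPase-activating protein Srgap2, which binds Robo1, was lower (-0.26 ± 0.0576, adjusted p = 0.00493), the adaptor Nck1 lower (-0.51 ± 0.121, adjusted p = 0.0077) and its paralog Nck2 higher (0.60 ± 0.167, adjusted p = 0.0161). The kinase Abl1 was higher by 0.27 ± 0.0541 (adjusted p = 0.00342). Of the trafficking genes, Ndfip2, an adaptor of Nedd4-family ubiquitin ligases, was higher by 0.29 ± 0.0497 (adjusted p = 0.00137). With the prefix as a covariate none of these 7 calls remained (Gpc1 0.28, adjusted p = 0.0557; Sdc2 -0.56, adjusted p = 0.0533; the adjusted p of the others was 0.2 to 0.886, and Nck2 turned to -0.09). The share of all genes called in that fit is not given here, so the loss cannot be read as a result about these genes. Cap2 was the only pathway gene called in KO against Het (0.27, adjusted p = 0.0221, 5.5% of all genes called).

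The genes whose WT level followed each member most closely over 28 clusters were taken as a description. The clusters come from the same libraries and differ in depth, with medians of 1518 UMIs in the unnamed cluster 14 and 19759 in cluster 0. Of the genes named next, Camkk2, Nav3, Uggt2 and Mdga1 had their highest level in cluster 14. For Robo1 they were Phactr1 (Pearson r = 0.879), Camkk2 (0.876) and Nav3 (0.874), and for Robo2 Fam8a1 (0.849), Bcl11a (0.844) and Fam84a (0.833). Robo4 was followed by Kcnq1 (0.993), Srarp (0.99) and Zfp366 (0.982). For Slit1 the closest were Dlgap3 (0.751), Lgi1 (0.732) and Sdk2 (0.731), for Slit2 Kcnn3 (0.797), Uggt2 (0.791) and Mdga1 (0.786), and for Slit3 Cyp26b1 (0.758), Zfp385b (0.71) and Gm32647 (0.688). Robo3 stayed under 20 CPM in every cluster and was left out.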

How the data were processed

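Libraries were prepared from dissociated fresh cortex of 10 embryos with 10x Genomics 3′ version 3 chemistry. The authors deposited, for each embryo, a matrix of raw UMI counts per gene and barcode, made with Cell Ranger on mm10; the file headers and the submitters' processing notes name version 6.0.2. Nothing in the matrices was normalized. Cells were kept by the thresholds of the study (1000 or more UMIs, mitochondrial genes giving 10% of them or less). Libraries were integrated with Seurat 5.3.0 (reciprocal principal components, 2000 variable genes without the 7 members and Gatad2b, 30 components, resolution 0.4). A cluster was given a class name, written with "-like", from marker lists, if at least 3 markers were detected in 10% of its cells and its marker score was at least 0.5; of several such lists, the one with most markers among the 10 leading genes was taken. A cluster stayed unnamed where another list lay within 0.4 of its score with at most 1 marker fewer there, where its depth was low and none of its markers was there, or where mitosis genes led. These rules were set after the clusters were seen. For doublets, scrublet (scanpy 1.11.5) by its own thresholds marked 0.0341% to 2.53% of cells and so did not work in every library; they were kept, and an alternative left out the top 4.8% to 8.31%.

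For each embryo UMIs were added up over its cells, and separately over those of a class where no embryo had fewer than 20, and these sums were tested with edgeR 4.0.16 (limma 3.58.1, R 4.3.3) by the quasi-likelihood test, after filterByExpr and TMM scaling, with all 10 embryos in 1 fit and p-values adjusted over all genes of the table. Printed CPM are TMM-scaled, except WT levels by class and cluster, Robo4 in endothelial-like cells and the values said to be before scaling. Shares within an embryo were compared with exact permutation tests. Detection was compared after thinning each cell to 3000 UMIs, with shallower cells left out. The tests were tried on simulated counts first. Embryos are separate animals, and a given replicate number does not pair them. Intervals and floors cover counting error only. The named genes are the 7 members, the pathway genes that were called, and for each member the 3 genes with the highest Pearson r over clusters among genes of at least 20 CPM in a cluster; Dcc was named after its value was seen. The members and lists were chosen with earlier results of these data known. Alternatives were DESeq2 1.42.0, its size factors, no filter, a replicate block, the prefix as a covariate, only the groups compared, libraries of 1 prefix, each embryo left out, 3000 UMIs, 5% mitochondrial UMIs, no marked doublets, resolution 0.8 and no integration; tests of single clusters and of unequal changes were added after the data were seen. Gene positions came from GENCODE, and the annotation used for counting is not named. Promoter windows came from RefSeq (GRCm38.p6) and matched 6 of the 7 members.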

Additional observations from a re-analysis of the deposited data

Results flagged for a closer look

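Several changes of Robo and Slit genes differed between classes or clusters by a term for unequal change, fitted over all genes in edgeR. For Robo1 in KO against WT the change was higher in cluster 5 than in cluster 6 by 1.31 (1.21 to 1.44 when 1 embryo was left out) and than in cluster 8 by 1.72 (1.41 to 1.93), and higher in cluster 0 than in cluster 1 by 0.67 and in cluster 12 than in cluster 1 by 0.45 (adjusted p = 0.00565, up to 0.0594 with 1 embryo left out). The Het change of Robo1 was higher in cluster 0 than in cluster 1 by 0.32 (adjusted p = 0.038, up to 0.16 with 1 embryo left out).

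For Robo2 the KO change was higher in layer II-IV-like than in layer V-VI-like cells by 0.38, and higher in cluster 6 than in cluster 8 by 1.12 (0.89 to 1.43, adjusted p at most 0.0372 with 1 embryo left out). For Slit3 it was higher in layer II-IV-like than in layer V-VI-like cells by 0.61 (adjusted p = 0.0245, but 0.052 without integration, 0.0657 and 0.0504 without WT replicate 1 or 2, and 0.121 and 0.0974 without KO replicate 1 or 3) and in cluster 12 than in cluster 1 by 1.64 (adjusted p = 0.00763, up to 0.114 with 1 embryo left out). For Slit1 the term for cluster 5 minus cluster 8 was -0.78 (adjusted p = 0.0293, up to 0.203 with 1 embryo left out). These terms were fitted without the prefix of the libraries, which differs between all WT and all KO embryos.

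Slit1 over all cells was at 11.1 CPM in Het replicate 4, the 1 Het library with the prefix of WT, apart from the other Het embryos at 9.463 to 9.554. It was the only one of 14 sets of Het values checked in which 1 embryo stood apart, and chance gives such a value in about 1 of 20 sets.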

How the results depend on the processing

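With the library prefix as a covariate, a fit that rests on Het replicate 4 alone, the members called in KO against WT went from 1 to 0, the pairs of a member and a class from 7 to 1 (Het against WT 2 to 0, KO against Het 1 to 0) and the pathway genes from 7 to 2 others (KO against Het 1 to 2), and Robo1 in layer II-IV-like Het cells gave 0.31. Pathway calls in KO against Het were also 2 within the libraries of 1 prefix and at 5% mitochondrial UMIs. Members called in KO against WT were 2 with DESeq2, at 5% mitochondrial UMIs and without marked doublets. Pairs called in Het against WT were 4 with DESeq2, 5 without the filter, and 1 at 5% mitochondrial UMIs or without marked doublets. In cluster 1 alone, Robo1 gave 0.19 in Het and 0.26 in KO. The adjusted p of Robo1 in KO against Het layer II-IV-like cells went under 0.05, at 0.25 with DESeq2 and with only the 2 groups, 0.24 without the filter, 0.22 within 1 prefix and 0.34 at resolution 0.8. The unequal change of Robo1 between layer II-IV-like and interneuron-like cells in KO was called, 1 against 0, at resolution 0.8 and without integration. The cause of these changes was not tested. The share of all genes called under each alternative, including those with 1 embryo left out, is not given here. The counts therefore do not tell whether the members or pathway genes moved apart from other genes.

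With 1 embryo left out, members called were 0 to 1 in Het against WT (1 without Het replicate 4) and 1 to 2 in KO against WT (2 without WT replicate 2 or Het replicate 4). Pairs called were 1 to 4 in Het against WT (changed without WT replicate 1, any Het embryo or KO replicate 3), 4 to 7 in KO against WT (4 without KO replicate 3) and 0 to 1 in KO against Het (0 without Het replicates 2, 3 or 4 or KO replicates 2 or 3). Pathway calls were 0 to 3 in Het against WT (3 without Het replicate 4), 4 to 9 in KO against WT (4 without KO replicate 2) and 0 to 2 in KO against Het. Robo1 in KO against Het layer II-IV-like cells stayed at 0.22 to 0.29, with an adjusted p under 0.05 without WT replicate 2 (0.0193) or 3 (0.0109). The unequal change of Robo1 was called 0 to 1 times (1 without WT replicate 2). Fitted log2 values near 0 turned sign. Over all cells, Robo2 in KO was 0 without the filter, -0.01 with the prefix and -0.07 to 0.09 with 1 embryo left out; Robo3 in KO against Het was -0.3 to 0.44; Robo4 in Het was 0.04 with the replicate block and -0.35 to 0.04, and in KO against Het -0.23 to 0.16; Slit2 in Het was -0.02 to 0.16; Slit3 was -0.15 to 0.34 in Het, and 0.02 with the prefix and -0.41 to 0.07 in KO. Robo1 in KO against Het was -0.03 in cluster 8 alone. Replicate numbers did not pair embryos: deviations of same-numbered embryos correlated at -0.185 to 0.125 (9 pairs), and those of others at -0.0898 to 0.145 (24 pairs). With the number as a block, members called were 1 (Het) and 2 (KO), pairs called in Het 5, and pathway genes 3 (Het) and 2 (KO against Het). The class with the highest WT level was the same for 5 of 7 members when cells were weighted equally. Low counts limit Robo3 throughout and Robo4 in the named classes other than endothelial-like cells.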
